A study of Mus musculus with 6 samples.

Results

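The transcripts described here are those of 36 genes of the lysosome and of autophagy, followed in cultured mouse spermatogonial stem cells given captopril or water. They were chosen by name, with earlier results of these data known. They fall into 10 cathepsins, 14 other lysosomal enzymes and proteins, and 12 autophagy genes. Through the RefSeq transcript accession of each probe all 36 had at least 1 probe on the array, 44 probes in all, out of 20284 named genes with 26762 probes. All 36 passed the filter on dim probes, as did 14876 genes in all. Spermatogonial stem cells are the germline stem cells of the testis. They were grown from dissociated testis cells on mouse embryonic fibroblast feeders, so the RNA can hold feeder transcripts. The captopril group of 3 arrays received 0.01 M captopril, an inhibitor of angiotensin-converting enzyme, for 24 h. The water group of 3 arrays received sterile water for 24 h, to which the labels also attach 0.01 M, so what that number means for water is not settled. Both groups carry the replicate numbers 2, 3 and 4 and are described as independent cell samples. Strain, age and whether separate animals were used are not given in the sources used here, so the p-values measure the spread between these samples.

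Lysosomes are acidic organelles that break down proteins, lipids and glycans. Cathepsins are their proteases, and other soluble hydrolases act on sugars and lipids with the help of membrane proteins that hold the organelle together and move ions and cholesterol across it. In autophagy a double membrane encloses cytoplasm and fuses with the lysosome. The LC3 and GABARAP proteins are attached to that membrane, and Sqstm1 links cargo to them. Many of these genes respond to the transcription factor TFEB and its relatives, which bind an E-box with the letters CACGTG that is extended on both sides in the palindromic CLEAR element.

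Promoters are shown first because this E-box was found in some members of each of the 3 groups, though not in most of them. RefSeq promoters (GRCm38.p6), each reaching from 250 bases before to 50 bases after the annotated start, were found for 31 of the 36 members. CACGTG, which reads the same on both strands, occurred in the promoters of 11 of these 31 genes (35.5%), against 8.1% of all 27025 genes in the promoter table and 11.3% of the 11833 tested genes with an entry. The 8 letters GTCACGTG, searched on both strands and containing CACGTG, occurred in 7 of 31 members (22.6%). Their share was 2.5% of all genes and 4.4% of the tested genes with an entry. The full CLEAR palindrome, which holds GTCACGTG on both strands, occurred in 0 of 31 members. It was found in 0.37% of all genes and 0.668% of the tested genes with an entry. By group, CACGTG was found in 4 of 8 cathepsins, 5 of 13 other lysosomal genes and 2 of 10 autophagy genes. A match of letters is a description and shows no binding. The 250 bases before the start are printed 5′ to 3′ for 4 members with at least 2 E-boxes and for Ctsk, the member with the smallest limma p in both fits. Capitals mark CACGTG, with the neighbouring GT or AC where GTCACGTG is present on either strand.
Ctsd (chr7:142387828-142388077, minus strand): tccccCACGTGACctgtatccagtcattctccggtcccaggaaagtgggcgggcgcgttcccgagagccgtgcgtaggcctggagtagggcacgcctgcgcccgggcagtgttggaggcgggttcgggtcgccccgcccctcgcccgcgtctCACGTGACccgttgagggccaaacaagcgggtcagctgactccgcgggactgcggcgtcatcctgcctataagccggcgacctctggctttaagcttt
Mcoln1 (chr8:3500269-3500518, plus strand): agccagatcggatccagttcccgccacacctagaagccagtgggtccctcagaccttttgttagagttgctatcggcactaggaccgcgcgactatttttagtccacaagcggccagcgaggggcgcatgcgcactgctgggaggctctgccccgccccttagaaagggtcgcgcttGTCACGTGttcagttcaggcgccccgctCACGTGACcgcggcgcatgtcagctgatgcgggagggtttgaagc
Lamp1 (chr8:13158911-13159160, plus strand): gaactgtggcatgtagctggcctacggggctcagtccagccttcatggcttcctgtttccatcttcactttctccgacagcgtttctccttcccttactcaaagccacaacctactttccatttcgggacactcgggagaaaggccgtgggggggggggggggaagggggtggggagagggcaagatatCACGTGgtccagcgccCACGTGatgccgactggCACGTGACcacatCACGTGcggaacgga
Gla (chrX:134601006-134601255, minus strand): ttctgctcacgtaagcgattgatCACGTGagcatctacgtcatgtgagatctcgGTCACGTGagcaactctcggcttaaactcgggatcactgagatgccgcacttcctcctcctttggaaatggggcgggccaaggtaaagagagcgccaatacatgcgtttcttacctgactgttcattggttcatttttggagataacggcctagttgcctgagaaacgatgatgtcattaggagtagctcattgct
Ctsk (chr3:95498960-95499209, plus strand): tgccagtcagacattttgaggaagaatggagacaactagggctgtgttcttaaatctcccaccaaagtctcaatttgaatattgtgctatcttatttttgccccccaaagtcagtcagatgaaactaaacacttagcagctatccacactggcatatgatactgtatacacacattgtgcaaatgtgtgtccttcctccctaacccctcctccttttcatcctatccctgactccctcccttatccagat
Lamp1, a main glycoprotein of the lysosomal membrane, had 4 copies of CACGTG between 61 and 15 bases before the start. Mcoln1, a lysosomal calcium channel, had 2, at 71 and 45 bases. The letters CACGTG are not in the window of Ctsk. Without water replicate 3, an array described next, the 11 members with CACGTG had a median log2 fold change, captopril over water, of 0.24, with 9 of 11 positive. The 20 members without it had a median of 0.12, with 12 of 20 positive. Over all 6 arrays the order was turned, at 0.07 and 0.16. Among all genes tested the 5-array medians were 0.08 with and 0.07 without the letters, and 60.1% and 58.6% of these genes were positive.

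Levels are log2 intensities minus that array's own 75th percentile, and they are compared only within a probe. That percentile was a signal of 1875 on water replicate 3 and 1885 on captopril replicate 4, against 2780 to 3424 on the other arrays. The share of spots well above background ran from 52.1% to 60.5%, no spot of a member was saturated, and every member was well above background on all arrays with a value. Ctsl had no value on water replicate 3, where its spot carried an outlier flag, so its fit rests on 5 arrays. Water replicate 3 correlated at 0.878 to 0.893 with the other arrays over 32380 probes, while r among those 5 was 0.970 to 0.991. Over the members the median SD was 0.40 over the 3 water arrays, 0.17 over the 3 captopril arrays and 0.10 over water replicates 2 and 4. The fits are therefore given with and without water replicate 3. Of the 16 listed markers of undifferentiated spermatogonia 14 were well above background on all 6 arrays, as were all 7 germ cell markers.

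Several members lay far lower on water replicate 3 than on any other array, most of all the autophagy genes. Sqstm1 (NM_011018) stood at −2.00 there against 2.34 to 3.02 on the other 5 arrays, which is 27.3-fold lower. Map1lc3a (NM_025735), which encodes an LC3 protein, stood at −1.12 against 3.03 to 3.37, and Gabarap (NM_019749) at 0.27 against 3.25 to 3.58. Becn1, a subunit of the lipid kinase complex that starts the autophagic membrane, stood at −2.63 against −0.19 to 0.69. Among the lysosomal genes the cysteine protease Ctsf was 7.93-fold lower there, the ganglioside activator Gm2a 5.24-fold and Psap, the precursor of the saposins, 4.23-fold. In all, 7 of 35 members with a value (20.0%) were at least 4-fold lower there than the mean of the other 5 arrays, and 8.1% of all genes tested were. By group these were 1 of 9 cathepsins, 2 of 14 other lysosomal genes and 4 of 12 autophagy genes. None of the other 5 arrays had a member that far below the rest. At the same time 20 of the 35 members (57.1%) lay above the mean of the other arrays there, as did 68.1% of all genes.

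Where 2 probes of a transcript could be compared, most of these low values were found on 1 probe and not on the other. Gabarap had a second probe for the same accession, which stood at 2.81 on water replicate 3 against 1.29 to 2.36 elsewhere, 1.60-fold higher than the mean of the other arrays. Gm2a was likewise low on the probe used for the gene and 1.95-fold higher on its other probe. That other probe was dim, at −3.03 there and −4.31 to −3.75 on the other arrays. The arrangement was the opposite for the aspartic protease Ctsd (NM_009983). Its probe used here differed by 1.02-fold on water replicate 3, while its other probe was not well above background there, against 1.22 to 1.94 on the other arrays. Set against the lowest level that was well above background on that array, this is at least 107-fold lower. Gaa, the acid alpha-glucosidase, and Atg7, an enzyme of LC3 conjugation, also had 1 probe each that was not well above background on this array only, at least 7.94-fold and 9.06-fold lower by the same bound. Both probes of Wipi1, which binds the early autophagic membrane, were lower there, by 2.45-fold and 9.13-fold. Among all 2818 accessions with 2 probes well above background on the other 5 arrays, 1 probe was at least 4-fold lower in 727 and both in 64. The share of such spots was 10.8% to 12.8% over 8 bands of rows and 11.3% to 13.0% over 8 bands of columns of the array. Of 292 probes with 3 or more spots, 24 were 4-fold lower in all of their spots, 252 in none and 16 in some. What set these probes apart was not tested.

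**Figure D1:**
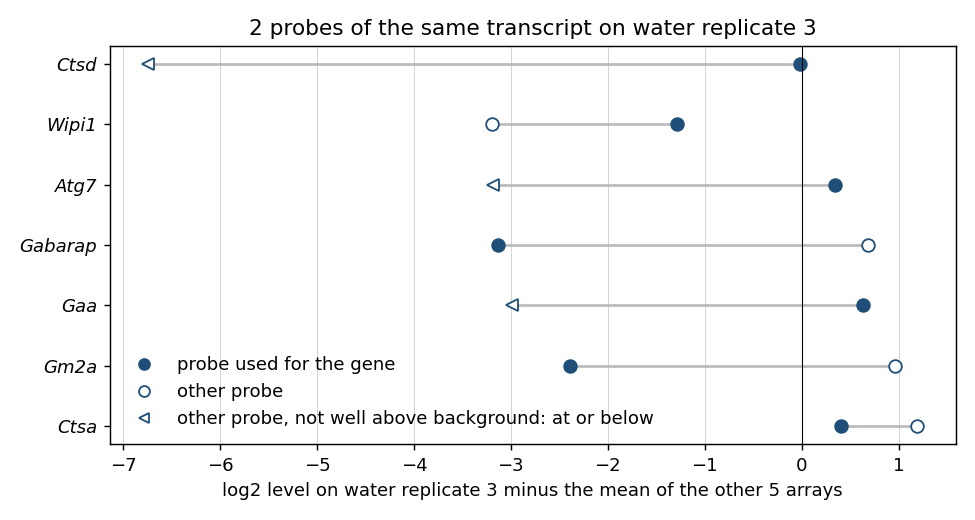
Each of the 7 members with 2 probes for 1 transcript accession is drawn with both probes. The horizontal axis gives the log2 level on water replicate 3 minus the mean of the other 5 arrays, with the probe used for the gene filled and a triangle for an upper bound where the probe was not well above background. In Gaa, Atg7, Gabarap and Gm2a the probes fall on opposite sides of 0, and in Ctsd the filled point lies at −0.02 and the bound of the other at −6.74.

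Over all 36 members the median difference with captopril was small, and none passed the test. Log2 fold changes of single members ran from −1.08 in Lamp2 (SE 0.41) to 1.44 in Sqstm1 (SE 1.24) over 6 arrays. The median log2 fold change was 0.08 over 6 arrays, with 23 members positive and 13 negative, beside −0.03 over all genes tested. Without water replicate 3 it was 0.15, with 22 positive and 14 negative, beside 0.07. With each array's median as the scale the 6-array median of the members was −0.22, with 12 positive and 24 negative, and that of all genes −0.33. This change of scale moves every gene with a value on all arrays by the same amount. The members thus lay 0.11 above all genes under both scales by construction. With quantile normalization, which can alter this, they lay 0.15 above all genes. limma called 0 of the 36 members and 0 of 14876 genes (0%) at an adjusted p under 0.05 over 6 arrays. At an unadjusted p under 0.05 it gave 3 members beside 8.21% of all genes, 2 of them higher (5.6%, beside 3.31% of all genes) and 1 lower (2.8%, beside 4.91%). In the fit of 5 arrays limma called 91 genes (0.612%), of which 62 were higher (0.417%) and 29 lower (0.195%), and again 0 of the 36 members. At an unadjusted p under 0.05 that fit gave 7 members beside 19.1% of all genes, 6 of them higher (16.7%, beside 12.1%) and 1 lower (2.8%, beside 6.98%). Leaving out a further array put the count of all genes called at 36 without captopril replicate 2 and at 0 without any of the other 4. With so few members on either side these shares are near those of all genes. In these bulk samples fewer cells of a type and less RNA per cell cannot be told apart.

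On the 75th percentile scale the groups of 6 arrays did not overlap in 9 members, beside 21.5% of all genes. The deposited values have a 75th percentile close to 0 on each array. Their median was −4.24 on water replicate 3 and −3.80 to −3.62 elsewhere. Scaling by the array median therefore raises water replicate 3 against the other arrays, and overlap was not counted on that scale. All captopril arrays lay above all water arrays in 7 of 36 members (19.4%, against 10.0% of all genes) and below them in 2 (5.6%, against 11.4%). Those higher were Ctsd, Ctsk, Ctsf, Hexa, Gm2a, Gabarapl1 and Wipi1, and those lower were Lamp2 and Atg5. In Ctsf, Gm2a and Wipi1 water replicate 3 was the lowest array by a wide margin. With 5 arrays the groups did not overlap in 19 members, beside 42.9% of all genes, and these were 16 higher (44.4%, against 27.2%) and 3 lower (8.3%, against 15.7%).

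**Figure D2:**
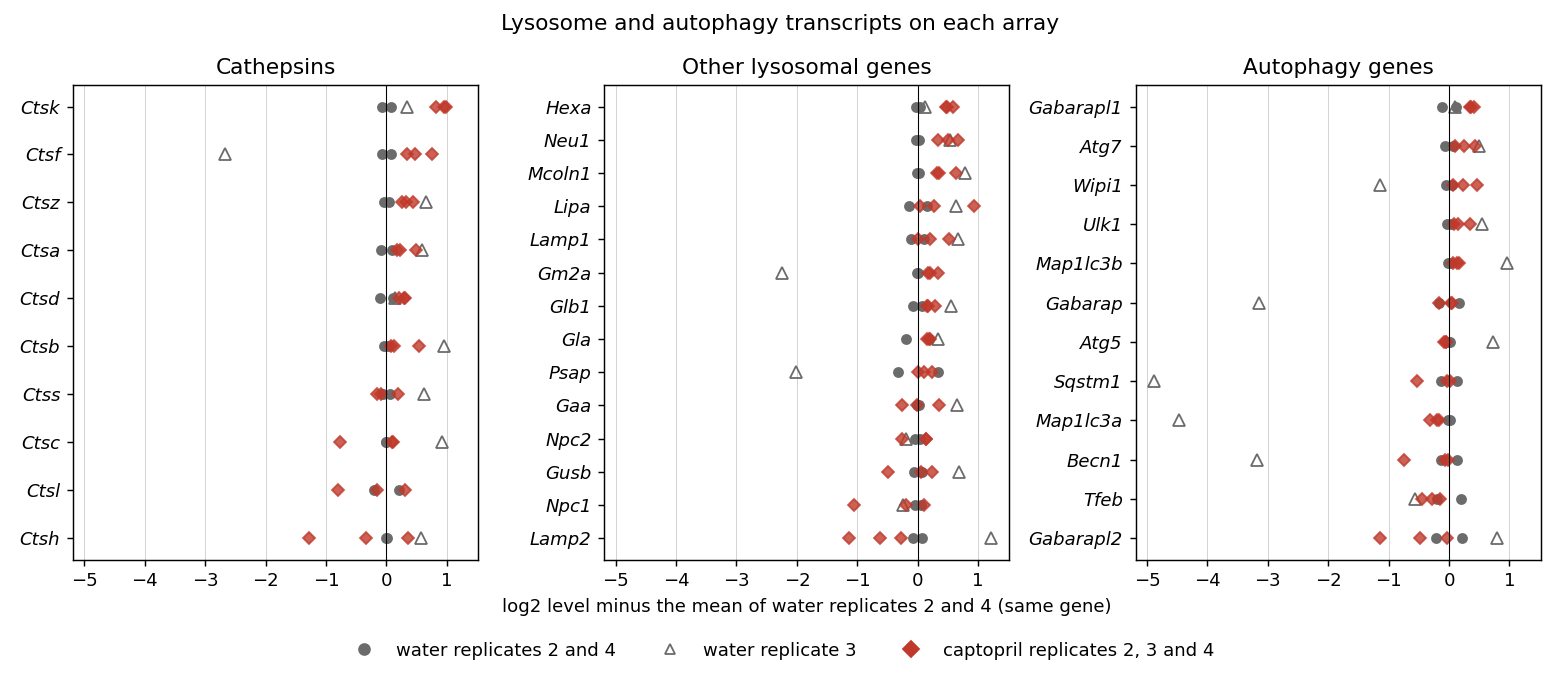
Every member is a row, and the horizontal axis gives its log2 level on each array minus its mean over water replicates 2 and 4. Circles are water replicates 2 and 4, open triangles water replicate 3 and diamonds captopril replicates 2, 3 and 4. Sqstm1, Map1lc3a, Becn1, Gabarap, Ctsf, Gm2a and Psap have their triangle far to the left, and the diamonds of Ctsk lie to the right of all its water points.

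Among the cathepsins, Ctsk stood highest with captopril in the fit without water replicate 3, and several lysosomal proteases lay slightly above water. The group median was 0.02 over 6 arrays, with 5 of 10 positive, and 0.26 without water replicate 3, with 6 of 10 positive. With each array's median as the scale the 6-array median was −0.27. Ctsk (NM_007802), a collagen-degrading cysteine protease best known from bone-resorbing cells, had levels of 0.46 in water replicate 2, 0.74 in replicate 3 and 0.32 in replicate 4. With captopril its levels were 1.22, 1.34 and 1.38 in the same order of replicates, which holds for the genes below too. On the scale used here all captopril values lay above all water values, and the groups were separated by more than the spread within either. The means were 0.51 ± 0.21 (SD, n = 3) in water and 1.31 ± 0.09 (SD, n = 3) with captopril. Their difference of 0.81 (SE 0.22) did not pass the test (limma adjusted p = 0.520). Without water replicate 3 the value was 0.92 (SE 0.15), 1.89-fold, with a limma adjusted p = 0.055, and Ctsk ranked 115th of 14876 genes by p. Within slide row 2, which holds all captopril arrays and only water replicate 4, it was 0.99. Over all alternatives run its value lay between 0.50 and 0.99. The 0.50 (SE 0.35, limma adjusted p = 0.611) came from all 6 arrays with each array's median as the scale. That scale raises water replicate 3, the highest water array of Ctsk, against the others. Overlap was not counted there, so the separation of the groups may not hold on it.

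Ctsf, another cysteine protease, stood at 1.60, −1.15 and 1.45 in water and at 2.00, 1.86 and 2.28 with captopril. The groups do not overlap, but the water mean is drawn down by replicate 3. Its log2 fold change was therefore 1.41 (SE 0.70, limma adjusted p = 0.619) over 6 arrays and 0.52 (SE 0.18, adjusted p = 0.190) over 5. Ctsd, the main aspartic protease of the lysosome, stood at 4.64, 4.67 and 4.42 in water and at 4.83, 4.74 and 4.85 with captopril. Its difference of 0.23 (SE 0.21, limma adjusted p = 0.704) became −0.08 with each array's median as the scale. Without water replicate 3 the probe used gave 0.27 and the other probe 0.28. Over 6 arrays the other probe gave 2.97, with water replicate 3 not well above background, and the mean of both probes 1.60.

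The lowest value of the group was that of Ctsh, an aminopeptidase, and its captopril arrays were spread widely. Ctsh stood at 1.24, 1.80 and 1.22 in water and at 1.59, 0.90 and −0.05 with captopril. Captopril replicate 2 lay within the water range, replicate 3 below it and replicate 4 furthest below. The difference of −0.61 had an SE of 0.43 over 6 arrays and was −0.42 over 5. Ctsc, which activates serine proteases of immune cells, and Ctsl, a broad endopeptidase, likewise had captopril replicate 4 as their lowest array, at −0.50 and 2.78. Ctsz, Ctsa and Ctsb, a carboxypeptidase, the protective protein of Neu1 and a broad cysteine protease, had log2 fold changes of 0.12, 0.11 and −0.07 over 6 arrays. Without water replicate 3 they had 0.34, 0.30 and 0.25, and in all 3 both water arrays then lay below all captopril arrays. Ctss, a protease of antigen-presenting cells, had −0.23 over 6 arrays and −0.02 over 5. Macrophages are rich in cathepsins, and 13 of 18 macrophage markers were well above background on all 6 arrays. The summed level of the 17 markers tested was 45.8 to 74.1 times the 75th percentile on the water arrays and 50.7 to 63.4 times on the captopril arrays. This sum over different probes serves only to set arrays side by side, and Itgam alone made up 74.1% to 86.4% of it. The other 16 markers summed to 10.1 to 11.9 times in water and 8.68 to 11.4 times with captopril. Cx3cr1 was not well above background on any array. The part of such cells in the cathepsin values was not tested.

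Among the other lysosomal genes none passed the test. The captopril arrays of Hexa lay above all water arrays, and those of Lamp2 below them. The group median was 0.07 over 6 arrays, with 10 of 14 positive, and 0.19 without water replicate 3, with 11 of 14 positive. With each array's median as the scale the 6-array median was −0.23. Hexa (NM_010421), the alpha subunit of beta-hexosaminidase, stood at 2.68, 2.78 and 2.62 in water and at 3.23, 3.13 and 3.14 with captopril. On the scale used here no captopril array came near a water array, and water replicate 3 was in its place. The means were 2.69 ± 0.08 (SD, n = 3) and 3.17 ± 0.05 (n = 3). The log2 fold change was 0.47 (SE 0.20, limma adjusted p = 0.606) over 6 arrays and 0.52 (SE 0.14, adjusted p = 0.130) over 5. Over all alternatives run the value of Hexa lay between 0.17 and 0.55. Gm2a, the cofactor of this enzyme on gangliosides, stood at −0.22, −2.46 and −0.20 in water and at −0.04, −0.01 and 0.12 with captopril. The groups did not overlap, with water replicate 3 far below the rest. Its log2 fold change was 0.98 (SE 0.60) over 6 arrays and 0.23 (SE 0.14) over 5. Its second probe, a dim one at −4.31 to −3.03, gave 0.02 and 0.43. The probes differed most over 6 arrays, and both were positive over 5.

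Neu1, the lysosomal sialidase, stood at 1.27, 1.83 and 1.32 in water and at 1.63, 1.79 and 1.96 with captopril. Water replicate 3 lay among the captopril arrays. The log2 fold change was 0.32 (SE 0.25, limma adjusted p = 0.656) over 6 arrays, 0.50 (SE 0.16, adjusted p = 0.173) over 5, and 0.02 over 6 arrays with each array's median as the scale. Mcoln1 stood at 1.37, 2.13 and 1.33 in water and at 1.67, 1.70 and 1.98 with captopril, with water replicate 3 above all other arrays. Its value of 0.17 (SE 0.29) over 6 arrays became 0.43 (SE 0.16, adjusted p = 0.221) without water replicate 3, and −0.13 over 6 arrays with each array's median as the scale. Glb1 (beta-galactosidase), Gla (alpha-galactosidase), Lipa (acid lipase) and Lamp1 lay between 0.02 and 0.20 over 6 arrays and between 0.18 and 0.41 over 5, with limma adjusted p of at least 0.444.

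Lamp2 (NM_010685), a membrane glycoprotein needed for fusion of the autophagic vesicle with the lysosome, had the lowest value of the group. It stood at 2.32, 3.45 and 2.17 in water and at 1.97, 1.62 and 1.11 with captopril. Every captopril array lay below every water array, with water replicate 3 the highest and captopril replicate 4 the lowest. The log2 fold change was −1.08 (SE 0.41, limma adjusted p = 0.591) over 6 arrays, −0.68 (SE 0.25, adjusted p = 0.223) without water replicate 3 and −0.61 within slide row 2. A second probe, named by another transcript of the gene (NM_001017959), gave −0.05 over 6 arrays and −0.20 over 5, so the difference was not shared by the probes. Npc1, the cholesterol exporter, and Gusb (beta-glucuronidase) had −0.30 and −0.29 over 6 arrays and −0.38 and −0.06 over 5, again with captopril replicate 4 lowest, at −0.85 and −0.65. Npc2, the soluble partner of Npc1, had 0.07 and 0.005 in the fits of 6 and 5 arrays, and Gaa −0.19 and 0.03. The other probe of Gaa gave 0.99 over 5 arrays, so its probes disagreed there too. Psap had 0.78 (SE 0.56) over 6 arrays and 0.11 over 5.

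**Figure D3:**
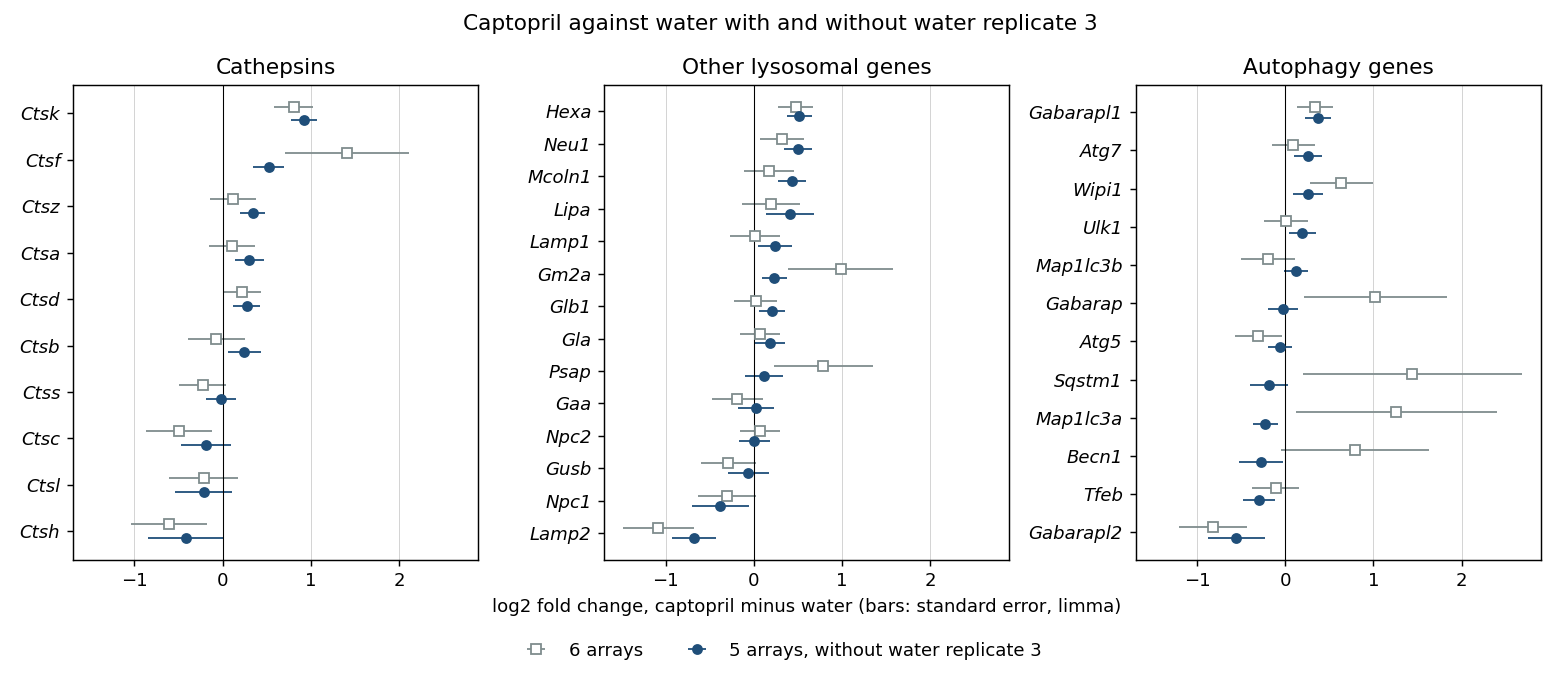
Every member is a row, and the horizontal axis gives its log2 fold change, captopril minus water, with the limma standard error as a bar. Squares are the fit of 6 arrays and circles that of 5 arrays. The widest bars and the largest shifts between the fits are those of Sqstm1, Map1lc3a, Becn1, Gabarap and Ctsf.

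The autophagy genes gave no common direction once water replicate 3 was left out. Their median was 0.21 over 6 arrays, with 8 of 12 positive, and −0.04 over 5, with 5 of 12 positive. With each array's median as the scale the 6-array median was −0.09. The 4 largest positive values over 6 arrays were those of Sqstm1 at 1.44 (SE 1.24), Map1lc3a at 1.26 (SE 1.13), Gabarap at 1.02 (SE 0.81) and Becn1 at 0.79 (SE 0.84). All 4 turned negative without water replicate 3, at −0.19, −0.23, −0.03 and −0.27, with limma adjusted p of 0.412 to 0.942. In Gabarap the other probe gave −0.49 over 6 arrays and −0.33 over 5. Map1lc3a, Gabarap and Becn1, like Psap above, were chosen for description after their values on that array were seen.

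Sqstm1 stood at 2.75, −2.00 and 3.02 in water and at 2.85, 2.89 and 2.34 with captopril, so that apart from water replicate 3 the groups overlapped. Its protein is itself degraded by autophagy, which these transcript levels do not show. Gabarapl1 (NM_020590), of the GABARAP family, stood at 2.88, 2.86 and 2.65 in water and at 3.13, 3.11 and 3.17 with captopril. On the scale used here its captopril arrays all lay above its water arrays. The step was small, at 0.34 (SE 0.20, limma adjusted p = 0.639) over 6 arrays and 0.37 (SE 0.15, adjusted p = 0.244) over 5. With each array's median as the scale the value over 6 arrays was 0.04 (SE 0.33). Gabarapl2, its relative, stood at 2.23, 3.24 and 2.65 in water and at 2.41, 1.96 and 1.30 with captopril. The groups overlapped, with captopril replicate 4 lowest, and the value was −0.82 (SE 0.38, adjusted p = 0.617) over 6 arrays and −0.55 (SE 0.32) over 5.

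Atg5, which joins with Atg12 in the LC3 conjugation machinery, stood at 2.13, 2.87 and 2.15 in water and at 2.05, 2.10 and 2.09 with captopril. The groups did not overlap, but without water replicate 3 the difference was −0.06 (SE 0.14). Wipi1 stood at 2.36, 1.16 and 2.24 in water and at 2.53, 2.76 and 2.37 with captopril, giving 0.63 (SE 0.36) over 6 arrays and 0.25 (SE 0.17) over 5. Map1lc3b, the LC3 protein most used as a marker, had −0.19 and 0.12 in the fits of 6 and 5 arrays, and Ulk1, the starting kinase, 0.01 and 0.19. Atg7 had 0.09 and 0.26. The gene of the regulator itself, Tfeb, had −0.11 (SE 0.26) and −0.30 (SE 0.19). The arrays do not measure TFEB in the nucleus or autophagic flux.

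**Figure D4:**
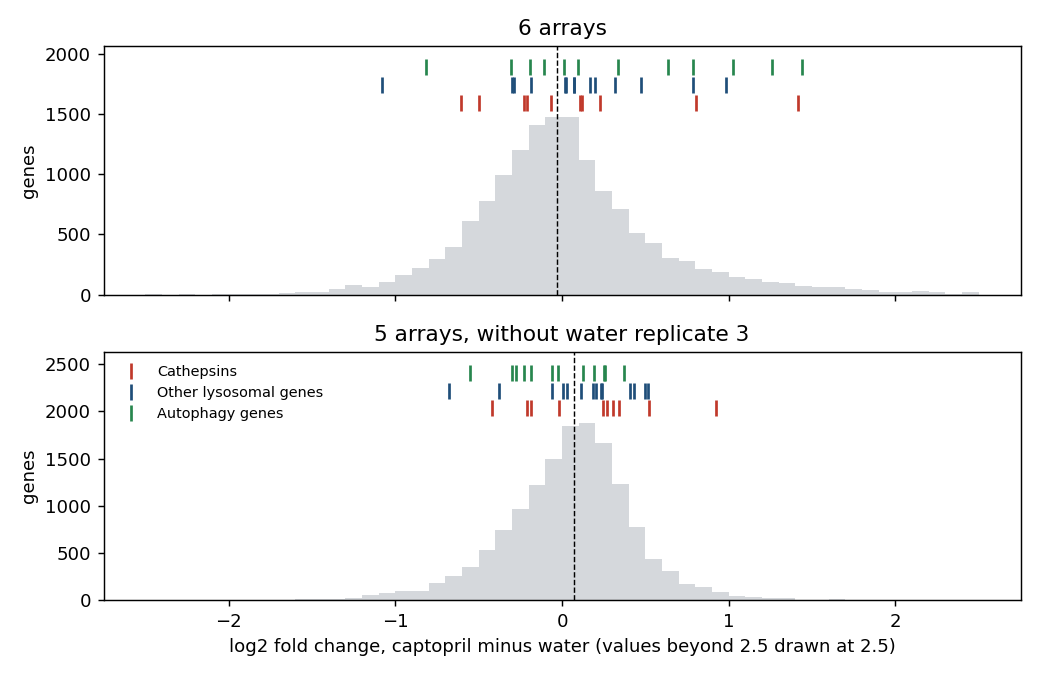
The grey histograms count all 14876 genes by log2 fold change, captopril minus water, over 6 arrays (top) and over 5 arrays (bottom), with the median of all genes dashed. Ticks above them are the cathepsins, the other lysosomal genes and the autophagy genes. The ticks spread over the range of all genes in both panels, and Ctsk at 0.92 is the furthest tick to the right in the lower panel.

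Further genes of the same pathways were taken from 7 lists with 206 genes, of which 181 were tested. Their median was 0.06 over 6 arrays, with 95 positive and 86 negative, and 0.14 without water replicate 3, with 121 positive and 60 negative. At an unadjusted p under 0.05 over 6 arrays, 3 were higher (1.66%, beside 3.31% of all genes) and 4 lower (2.21%, beside 4.91%). Over 5 arrays 20 were higher (11.0%, beside 12.1%) and 5 lower (2.76%, beside 6.98%). limma called 0 of the 181 over 6 arrays and 1 over 5 (0.552%, beside 0.612%). This was Stfa3, a stefin that inhibits cysteine cathepsins, at −2.44, −1.54 and −1.84 in water and −3.87, −3.80 and −4.40 with captopril. Its log2 fold change was −2.09 (limma adjusted p = 0.455) over 6 arrays, and over 5 it fell by 1.89 (adjusted p = 0.043). That call was lost with quantile normalization and with no filter on dim probes, under which limma called 0 genes, and with any 1 of 4 further arrays left out. Of the other inhibitors only 6 were tested, and Serpinb1a, a protease inhibitor of the serpin family, had −0.88 (adjusted p = 0.596) over 6 arrays and −0.60 (adjusted p = 0.269) over 5.

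Of the 34 further hydrolases tested, 19 were positive over 6 arrays (55.9%, beside 46.8% of all genes), with a median of 0.11. Over 5 arrays 23 were positive (67.6%, beside 58.5%), with a median of 0.20. Naglu, which removes N-acetylglucosamine from heparan sulphate, stood at 0.36, −0.52 and 0.22 in water and 1.02, 0.94 and 1.24 with captopril. Its groups did not overlap, and its values were 1.05 (limma adjusted p = 0.520) and 0.78 (adjusted p = 0.080) over 6 and 5 arrays. Naaa, an acid amidase, had 0.56 and 0.58. The 31 genes of further membrane and sorting proteins had medians of 0.07 over 6 arrays and 0.11 over 5. Ctns, the cystine exporter, had 0.66 (adjusted p = 0.576) and 0.78 (adjusted p = 0.067) over 6 and 5 arrays, and the calcium channel Mcoln3 0.49 and 0.43. The 21 proton pump genes had medians of 0.07 in both fits, with Atp6v1c1 at −1.51 and −0.73 and Atp6v0e2 at 0.89 and 0.37. The 35 further autophagy core genes had medians of 0.02 and 0.14, with the lipid transfer protein Atg2a at 1.28 and 0.62 and the fusion protein Snap29 at −0.64 and −0.46. The 17 autophagy receptor genes had 0.18 and 0.09, with Nbr1 at 0.60 and 0.35. Wdfy3 had 1.94 over 6 arrays and 0.69 over 5, and was well above background on 2 of 3 water arrays. The 36 regulator genes had −0.07 and 0.15, with Tbc1d7 at −0.68 and −0.53 and the kinase subunit Prkaa2 at −0.54 and −0.36. Of all these genes Stfa3 alone passed over all genes, in the fit of 5 arrays.

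Water replicate 4 was the lowest of the 6 arrays in 10 of 35 members, against 25.6% of all genes. Water replicate 3 was lowest in 9, against 24.1%, and captopril replicate 4 in 8, against 17.1%. The highest array was water replicate 3 in 18 of 35, against 54.8% of all genes. Markers of the fibroblast feeders, 18 of 18 well above background on all arrays, had a median of −0.44 over 6 arrays and −0.16 over 5. Their summed level was 205 to 382 times the 75th percentile on the water arrays, highest on replicate 3, and 193 to 232 times on the captopril arrays. The sum of the germ cell markers was also highest on water replicate 3, at 95.9 times against 52.4 to 65.4 times elsewhere. Those markers had medians of −0.29 over 6 arrays and −0.09 over 5. Markers of undifferentiated spermatogonia were highest there too, at 95 times against 58.5 to 90.7, with medians of 0.11 and 0.23. Fibroblasts also make cathepsins and Lamp2. Of the Sertoli markers 5 of 12 were well above background on all 6 arrays, with Amh and Fshr on none, and of the Leydig markers 2 of 8, with Cyp11a1 and Cyp17a1 on none. The part of feeder cells in the members' values was not tested.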

How the data were processed

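The 6 single-colour arrays share 1 slide in 2 rows, per the file headers. The authors made the spot intensity values with Agilent's Feature Extraction. Its version is 11.5.1.1 in the headers and 10.7 in the submitters' processing notes, and it subtracted the background within each array, per the file headers. The deposited log2 values of the series table equal log2 of these signals minus a constant per array (r = 1, 100% of values within 0.01), with column medians of −3.80, −4.24 and −3.79 in water and −3.72, −3.63 and −3.62 with captopril, in the order of the replicate numbers, and a 75th percentile close to 0. They served as an alternative.

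Here log2 of the processed signal minus each array's 75th percentile was used. Control spots and outlier spots were left out, and spots of a probe were averaged. Probes were named through RefSeq accessions (GRCm38.p6), which left 28919 of 55681 unnamed. A gene is its brightest probe, provided 3 or more arrays had it well above background. The comparison used limma 3.58.1 (R 4.3.3) (two-sided, Benjamini-Hochberg over all genes, threshold 0.05). Plots used Python 3.11.15 and matplotlib 3.10.9. The code was tested on simulated data. The members and gene lists were chosen with earlier results of these data known. Members are given array by array if an unadjusted p was under 0.05 in either fit, if the groups did not overlap over 6 arrays, or if they were the extremes of their group. Of each further list the 2 genes with the smallest p over 6 arrays and any called gene are named.

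The alternatives were normexp background correction (offset 50, on median spot and background signals, since no mean signal column was used), quantile or median scaling, other filters and probe rules, a variance trend, the replicate number or slide row as a block, and each array left out. The number of arrays limits the precision.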

Additional observations from a re-analysis of the deposited data

How the results depend on the processing

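Over 6 arrays limma called 0 genes in every alternative with all arrays. Leaving out single arrays gave 0 to 91 calls, a median of the members of −0.01 to 0.15, of the cathepsins of −0.11 to 0.26, of the other lysosomal genes of −0.01 to 0.19 and of the autophagy genes of −0.04 to 0.26. Scaling by the array median put the 4 medians at −0.22, −0.27, −0.23 and −0.09, Ctsd at −0.08 and Mcoln1 at −0.13. The mean of a gene's probes put the autophagy median at 0.30, Ctsd at 1.60, Gabarap at 0.27, Gm2a at 0.50, Lamp2 at −0.56 and Wipi1 at 1.07. The slide row as a block, and slide row 2 alone, put the cathepsins at 0.30, the autophagy genes at 0.01, Sqstm1 at −0.32, Becn1 at −0.14, Map1lc3a at −0.20 and Psap at −0.21. Both settings compare captopril with water replicate 4 alone. Without water replicate 3 Sqstm1, Becn1, Gabarap and Map1lc3a stood at −0.19, −0.27, −0.03 and −0.23. Dropping the filter as well could not change these values, the cathepsins' 0.26 or the autophagy genes' −0.04. All members passed it with their brightest probe. Over the single arrays left out, these 4 genes ranged from −0.19 to 2.32, −0.27 to 1.38, −0.03 to 1.63 and −0.23 to 2.02. With quantile normalization added, the autophagy median was −0.11 and those 4 genes −0.24, −0.27, −0.12 and −0.32. With median scaling added they were −0.18, −0.32, −0.41, −0.16 and −0.36, with Psap at −0.02. The 91 calls without water replicate 3 became 0 with quantile normalization, 39 with median scaling, 0 with no filter, and 0 to 36 with a further array left out. The cause was not tested. The replicate block gave 0 calls (smallest limma adjusted p = 0.291) and Ctsk 0.81. Deviations from the group mean correlated at −0.015, 0.022 and −0.192 for same-numbered arrays and at −0.125 to 0.254 for the other pairs. With 3 arrays per group these values cannot show whether same-numbered arrays share more than a number. Of the 18 members followed, Ctsk, Ctsf, Hexa, Lamp2, Neu1, Gm2a, Gabarapl1, Gabarapl2, Ctsh, Atg5 and Wipi1 kept their sign in all 20 alternatives. Several of these could not turn a sign. The variance trend and the replicate block leave the fold changes of these members as they are. Other filters keep their probes, and the deposited values are the same signals on nearly the same scale.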
